A study of Rattus norvegicus with 12 samples.

Results

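The genes described here build proteins or build the ribosome: translation initiation factors, the kinases that phosphorylate initiation factor eIF2α, ribosomal proteins, aminoacyl-tRNA ligases, ribosome assembly factors, and subunits of RNA polymerases I and III. They were chosen by gene symbol (symbols of initiation and elongation factors, ribosomal proteins, ligases, and the Utp, Nol, Rrp, Tsr1, Bms1 and RNA polymerase families), together with a total of at least 60 reads over all libraries. Symbols came from a supplementary table of the study that pairs gene identifiers with symbols. It was used for 1998 of the 32754 genes counted, those with the lowest identifiers, so the genes below are a part of each family. Members outside those 1998 genes were not analysed here by name. Relatives with other symbols, such as Eprs and Znrd1, were missed by the choice and are given with the further lists. The symbols matched 35 genes, 34 of which reached the minimum, and 33 of these were tested. Vars2, with 75 reads in total, lay just inside the minimum, and Eef2kmt, with 32 reads, lay outside it.

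In the first step of translation, eIF2 carries the initiator tRNA to the small ribosomal subunit, and eIF2B reloads eIF2 with GTP. Kinases that sense amino acid shortage, heme shortage or stress of the endoplasmic reticulum phosphorylate eIF2α and thereby slow initiation. Ribosomes are assembled in the nucleolus and nucleus from RNA made by polymerases I and III, and their production is tied to cell growth. In the growth plate, FGF signaling restrains chondrocyte proliferation.

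Gene expression was measured by QuantSeq 3′ mRNA sequencing in RCS, a chondrocyte line from the rat Swarm chondrosarcoma. WT RCS and FGFR3/4KO RCS, a CRISPR/Cas9 clone lacking both receptors, were kept overnight in medium with adult bovine serum, without FGF18 (vehicle) or with FGF18. The sample labels give FGF18 as 50 µg/ml, while the methods give the same figure in ng/ml. Each of the 4 groups had 3 libraries, labelled as biological replicates, and p-values measure the spread between these libraries. Because FGFR3/4KO RCS is a single clone, its differences from WT RCS can stem from the clone as well as from the loss of the receptors. Fgfr3 and Fgfr4 were not analysed here by name. Reads counted on genes numbered 669585 to 947730 in WT vehicle, 846957 to 1196647 in WT FGF18, 373964 to 925006 in FGFR3/4KO vehicle and 840149 to 1140741 in FGFR3/4KO FGF18 libraries.

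The chondrocyte label was checked against marker genes. The summed level of 6 chondrocyte markers, of which Mia had the most reads, lay between 5056 and 5807 CPM (counts scaled to library size) in every library. Sox9 was at 1439 ± 61.4 CPM and Col11a2 at 701 ± 100.3 CPM in WT vehicle (SD, n = 3 each), whereas Chad was at 10.7 ± 3.40 and Epyc at 8.25 ± 1.16 CPM, from 106 and 64 reads in all 12 libraries. Single markers differed between groups. With FGF18 in WT RCS, Mia was higher, at a log2 fold change of 0.37 (SE 0.11, edgeR FDR = 0.016), and S100b lower, at -0.52 (SE 0.17, edgeR FDR = 0.024). S100b was at 1330, 1352 and 1283 CPM (vehicle) against 1012, 1129 and 623 CPM (FGF18), with WT FGF18 replicate 3 far below the others. Between FGFR3/4KO and WT vehicle, Mia was lower, at -0.35 (SE 0.11, edgeR FDR = 0.038), and Col11a2 was higher, at 0.40 (SE 0.13, edgeR FDR = 0.041). Chad was lower, at -2.23 (SE 0.68, edgeR FDR = 0.025), from only 2, 1 and 1 reads in FGFR3/4KO vehicle against 10, 7 and 8 in WT vehicle. Summed levels of other cell types reached at most 32.03 CPM for fibroblast, 11.5 for osteoblast, 5.74 for endothelial, 25.4 for leukocyte, 33.3 for hepatocyte and 65.0 for neuron markers. The hepatocyte gene Alb, with at most 27 reads per library, was higher with FGF18 in WT RCS, at 1.79 (SE 0.58, edgeR FDR = 0.023), and in FGFR3/4KO against WT vehicle, at 2.01 (SE 0.60, edgeR FDR = 0.024). With FGF18 in FGFR3/4KO RCS its value was -2.56 (SE 0.62, edgeR FDR = 0.62), and its interaction, -4.35 (SE 0.85, edgeR FDR = 0.00089), passed. The part of these markers in the levels below was not tested.

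The first comparison asked which of these genes FGF18 changed in WT RCS. FGF18 inhibited 5 of the 33 tested genes, among them Vars, Tsr1, Eif2b1 and Eif3d, and induced 3, Rpl23, Rplp0 and Eif2ak4 (edgeR's quasi-likelihood test, Benjamini-Hochberg FDR under 0.05 over 7378 genes). Over all genes tested, 12.8% were lower and 12.9% higher at this threshold, so the shares among these genes, 15.2% and 9.09%, were near the background. An unadjusted p under 0.05 in this test was reached by 17 of the 33, beside 2668 of 7378 over all genes tested. The sizes leaned downward: 24 of 33 log2 fold changes were below 0, with a median of -0.27, against 3556 of 7378 and a median of 0.02 over all genes tested. The groups by role below hold few genes, and their counts of calls were not tested against the shares of all genes. The changes called ranged from -0.98 for Vars to 0.66 for Eif2ak4. All values below are TMM-normalized CPM of the same gene in different libraries. QuantSeq counts do not scale with transcript length, and levels of different genes were not compared. In such bulk samples, fewer cells of a type and less RNA per cell cannot be told apart.

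**Figure D1:**
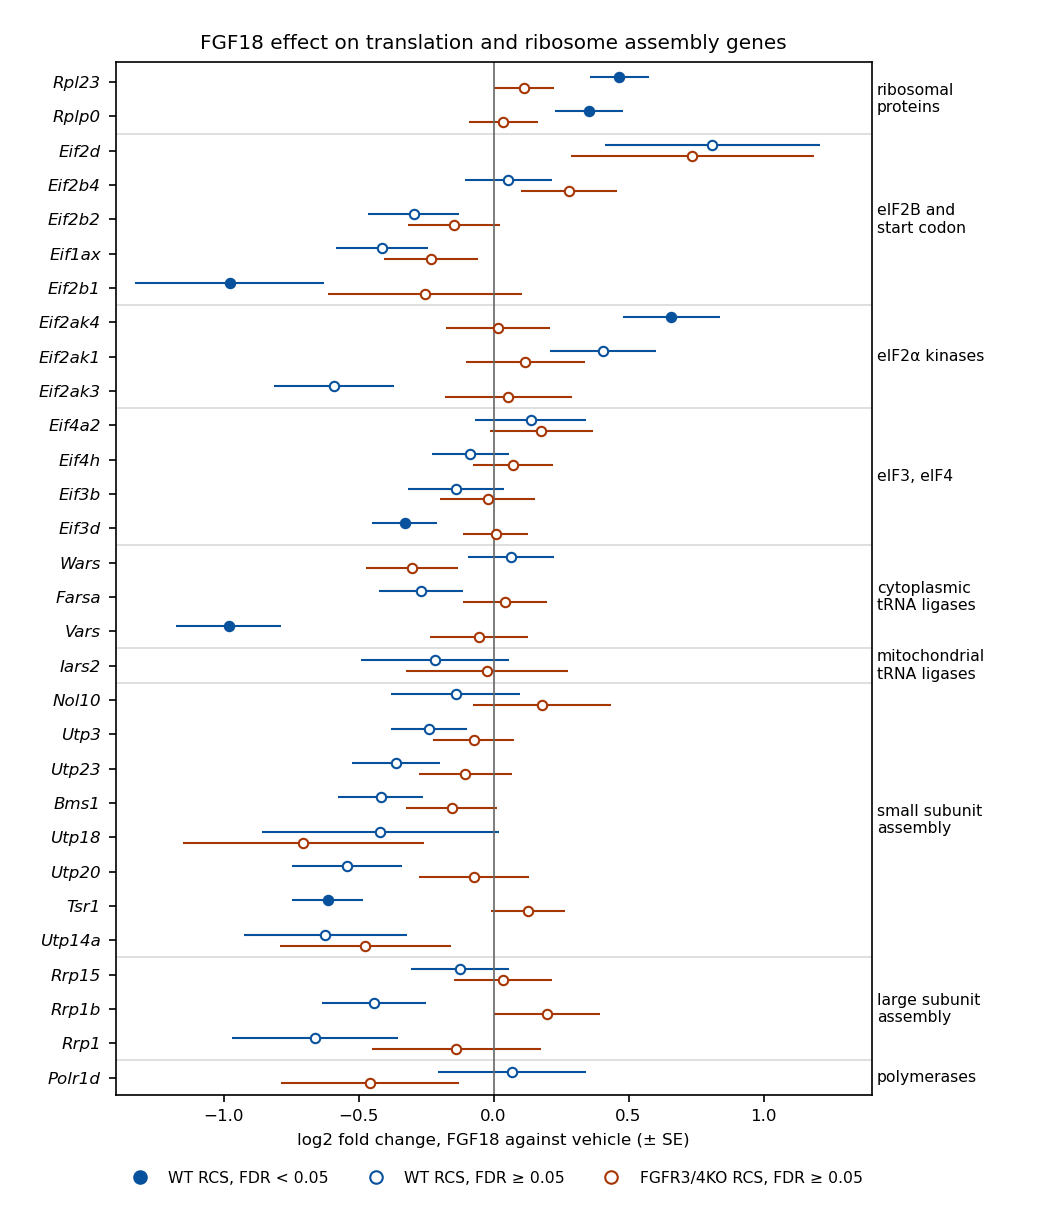
Log2 fold change (FGF18 against vehicle, ± SE, 3 libraries per group) of each tested gene named in the text, grouped by role, in WT RCS (blue) and FGFR3/4KO RCS (orange), with filled points for an edgeR FDR under 0.05. In WT RCS 4 genes to the left and 3 to the right are filled, all 8 small subunit assembly genes lie left of 0, and no point is filled in FGFR3/4KO RCS.

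Both ribosomal protein genes were induced in WT RCS. Rpl23, which encodes a protein of the large subunit, was at 2671, 2824 and 2575 CPM (vehicle) against 3485, 3583 and 4086 CPM (FGF18) in WT RCS. The FGFR3/4KO libraries held 2211, 2034 and 2157 CPM (vehicle) and 2409.9, 2249 and 2272 CPM (FGF18). The 3 WT FGF18 libraries lay above all others, and FGFR3/4KO FGF18 lay just above FGFR3/4KO vehicle. The log2 fold change was 0.47 (SE 0.11, edgeR FDR = 0.0022) in WT RCS and 0.11 (SE 0.11, edgeR FDR = 0.86) in FGFR3/4KO RCS. Rplp0, the base of the stalk that recruits translation factors, was at 1316, 1387 and 1033 CPM (vehicle) against 1503, 1548 and 1721 CPM (FGF18) in WT RCS. Its levels in FGFR3/4KO RCS came to 803, 849.8 and 790.1 CPM (vehicle) and 724, 905 and 869.6 CPM (FGF18). The WT groups did not overlap, the FGFR3/4KO groups did, and every FGFR3/4KO library lay below every WT library. The log2 fold change of Rplp0 was 0.35 (SE 0.13, edgeR FDR = 0.038) in WT RCS and 0.04 (SE 0.13, edgeR FDR = 0.98) in FGFR3/4KO RCS. The genotypes did not differ in the FGF18 effect past the threshold for Rpl23, at -0.35 (SE 0.16, edgeR FDR = 0.16), or Rplp0, at -0.32 (SE 0.18, edgeR FDR = 0.30).

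The call of Rplp0 in WT RCS was lost in 8 of 12 fits without 1 library (log2 fold change from 0.23 to 0.39, edgeR FDR from 0.054 to 0.27) and was kept without WT vehicle replicate 2, WT FGF18 replicate 1, FGFR3/4KO FGF18 replicate 1 or FGFR3/4KO FGF18 replicate 2, while that of Rpl23 was kept in all 12. Mammalian genomes hold many near-identical copies of ribosomal protein genes, so the counts of both genes are uncertain to the extent that reads fell on copies. Of all reads, low alignment quality kept 78.5% ± 1.20 from being counted in WT vehicle, 77.9% ± 1.13 in WT FGF18, 73.3% ± 1.14 in FGFR3/4KO vehicle and 72.5% ± 1.32 in FGFR3/4KO FGF18 (SD, n = 3 each), and their part in these levels was not tested.

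Eif2ak4, which encodes the eIF2α kinase GCN2 that responds to uncharged tRNA, was at 76.8, 80.2 and 73.0 CPM (vehicle) against 140.2, 126 and 92.4 CPM (FGF18) in WT RCS. FGFR3/4KO RCS gave 82.7, 59.5 and 86.6 CPM (vehicle) and 91.0, 71.8 and 78.3 CPM (FGF18). The WT FGF18 libraries lay above every other library, WT FGF18 replicate 3 by little, and the FGFR3/4KO groups overlapped. FGF18 induced Eif2ak4 in WT RCS by 0.66 (SE 0.18, edgeR FDR = 0.007), and in FGFR3/4KO RCS the value was 0.02 (SE 0.19, edgeR FDR = 0.99). The difference between the genotypes, -0.64 (SE 0.26, edgeR FDR = 0.13), did not pass. Without WT FGF18 replicate 1 the log2 fold change in WT RCS was 0.53 and missed the threshold (edgeR FDR = 0.0501).

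Eif2ak3, the kinase PERK of the endoplasmic reticulum membrane, was at 55.1, 65.3 and 69.0 CPM (vehicle) against 40.2, 40.2 and 46.8 CPM (FGF18) in WT RCS. Without the receptors, the levels were 53.6, 28.3 and 53.7 CPM (vehicle) and 62.0, 47.9 and 41.5 CPM (FGF18). The WT FGF18 libraries lay below the WT vehicle libraries, and the FGFR3/4KO groups overlapped, the lowest value, in FGFR3/4KO vehicle replicate 2, resting on 10 reads. The log2 fold change in WT RCS, -0.59 (SE 0.22, edgeR FDR = 0.0503), just missed the threshold. It was called lower with the likelihood-ratio test, with only the groups compared and in 5 of the 12 fits without 1 library. Eif2ak1, the heme-regulated kinase HRI, was at 63.8, 62.6 and 66.0 CPM (vehicle) against 99.2, 75.6 and 78.9 CPM (FGF18) in WT RCS. The FGFR3/4KO libraries held 46.0, 45.3 and 62.5 CPM (vehicle) and 63.3, 68.2 and 41.5 CPM (FGF18). The WT groups did not overlap, and those of FGFR3/4KO RCS did. Neither passed, with log2 fold changes of 0.40 (SE 0.20, edgeR FDR = 0.14) in WT RCS and 0.12 (SE 0.22, edgeR FDR = 0.94) in FGFR3/4KO RCS. For Eif2ak3 in FGFR3/4KO RCS the value was 0.06 (SE 0.24, edgeR FDR = 0.98). The genotypes did not differ in the FGF18 effect past the threshold for either gene. The interaction was 0.64 (SE 0.32, edgeR FDR = 0.23) for Eif2ak3 and -0.29 (SE 0.30, edgeR FDR = 0.63) for Eif2ak1.

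Eif2b1, the α subunit of eIF2B, was at 36.2, 17.7 and 21.0 CPM (vehicle) against 11.5, 11.5 and 14.8 CPM (FGF18) in WT RCS. Its levels in FGFR3/4KO RCS came to 19.9, 17.0 and 23.01 CPM (vehicle) and 10.5, 17.7 and 22.1 CPM (FGF18). The WT FGF18 libraries lay below the WT vehicle libraries, of which replicate 1 was far above the others, and the FGFR3/4KO groups overlapped. FGF18 inhibited Eif2b1 in WT RCS, at -0.98 (SE 0.35, edgeR FDR = 0.04), from 12 to 25 reads per WT library. In FGFR3/4KO RCS the value was -0.25 (SE 0.36, edgeR FDR = 0.91) and the interaction 0.72 (SE 0.50, edgeR FDR = 0.42). The call in WT RCS was lost without WT vehicle replicate 1, WT vehicle replicate 3, WT FGF18 replicate 1 or WT FGF18 replicate 2 (log2 fold change from -1.10 to -0.65, edgeR FDR from 0.057 to 0.26). Neither of the other eIF2B subunits tested here passed: Eif2b2, the β subunit, had a log2 fold change of -0.30 (SE 0.17, edgeR FDR = 0.21) and Eif2b4, the δ subunit, 0.06 (SE 0.16, edgeR FDR = 0.84). Eif1ax, the factor eIF1A that promotes scanning to the start codon, was at 136 ± 20.9 CPM (vehicle) against 102 ± 5.60 CPM (FGF18) in WT RCS (SD, n = 3 each), and its log2 fold change, -0.41 (SE 0.17, edgeR FDR = 0.075), did not pass. Eif2d, which delivers tRNA to the ribosome without GTP, had the highest value among the 33 genes, 0.81 (SE 0.40, edgeR FDR = 0.14), without passing, and a similar one in FGFR3/4KO RCS, 0.74 (SE 0.45, edgeR FDR = 0.81). It rested on 125 reads in all 12 libraries.

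The factors eIF3 and eIF4 bring the mRNA to the small subunit. Eif3d, the eIF3 subunit that can bind the cap of certain mRNAs, was at 1074, 1232 and 1078 CPM (vehicle) against 835, 902 and 959.8 CPM (FGF18) in WT RCS. FGFR3/4KO RCS gave 1062, 1068 and 933 CPM (vehicle) and 1160.1, 949 and 966 CPM (FGF18). The WT groups did not overlap, and the FGFR3/4KO groups did. The log2 fold change was -0.33 (SE 0.12, edgeR FDR = 0.045) in WT RCS, 0.01 (SE 0.12, edgeR FDR = 0.99) in FGFR3/4KO RCS, and the interaction 0.34 (SE 0.17, edgeR FDR = 0.24). The call in WT RCS was lost in 6 of 12 fits without 1 library, those lacking WT vehicle replicate 1, WT vehicle replicate 2, WT vehicle replicate 3, WT FGF18 replicate 1, WT FGF18 replicate 2 or FGFR3/4KO vehicle replicate 1 (log2 fold change from -0.36 to -0.26, edgeR FDR from 0.06 to 0.19). Eif3b, the scaffold subunit of eIF3, had a log2 fold change of -0.14 (SE 0.18, edgeR FDR = 0.61) in WT RCS, Eif4h, which assists the helicase eIF4A, -0.09 (SE 0.14, edgeR FDR = 0.71), and Eif4a2, a form of that helicase, 0.14 (SE 0.21, edgeR FDR = 0.67).

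The cytoplasmic tRNA ligases, which charge tRNAs with amino acids, include Vars, the gene with the lowest log2 fold change in WT RCS among the 33 tested here. Vars, the valyl-tRNA ligase, was at 87.0, 122 and 96.9 CPM (vehicle) against 54.9, 38.3 and 62.8 CPM (FGF18) in WT RCS. Without the receptors, the levels were 106, 136 and 130.4 CPM (vehicle) and 133, 109.9 and 115 CPM (FGF18). The WT FGF18 libraries lay below every other library, and the FGFR3/4KO groups overlapped. FGF18 inhibited Vars in WT RCS by a log2 fold change of -0.98 (SE 0.19, edgeR FDR = 0.00039), and in FGFR3/4KO RCS the value was -0.05 (SE 0.18, edgeR FDR = 0.98), with a 95% interval of -0.42 to 0.32. The effects differed between the genotypes, with an interaction of 0.93 (SE 0.27, edgeR FDR = 0.022). Without WT vehicle replicate 2, WT FGF18 replicate 2 or FGFR3/4KO vehicle replicate 1 this interaction missed the threshold (log2 fold change from 0.78 to 0.83, edgeR FDR from 0.071 to 0.084).

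Farsa and Wars, also cytoplasmic ligases, did not pass in either genotype. Farsa, the α subunit of the phenylalanyl-tRNA ligase, had a log2 fold change of -0.27 (SE 0.16, edgeR FDR = 0.22) in WT RCS, and Wars, the tryptophanyl-tRNA ligase, 0.06 (SE 0.16, edgeR FDR = 0.81). For Wars the value was -0.30 (SE 0.17, edgeR FDR = 0.79) in FGFR3/4KO RCS. Iars2, the mitochondrial isoleucyl-tRNA ligase, had a log2 fold change of -0.22 (SE 0.27, edgeR FDR = 0.61) in WT RCS. Vars2, the mitochondrial valyl-tRNA ligase, was not tested, since its 75 reads gave 2 to 13 per library.

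The genes for small subunit assembly all had log2 fold changes below 0 in WT RCS, 8 of 8, with a median of -0.42. Of the 8, 1 passed (12.5%), beside 12.8% of all genes tested, and 3 passed with the likelihood-ratio test, with no filter or with at least 1 CPM in 3 libraries. Over all genes, 1005 of 7378, 974 of 14534 and 1005 of 11581 were lower in those 3 alternatives, in that order. Tsr1, a late factor of the small subunit precursor that resembles a GTPase, was at 333, 347 and 335 CPM (vehicle) against 189, 231 and 245 CPM (FGF18) in WT RCS. The FGFR3/4KO libraries held 279, 283 and 244 CPM (vehicle) and 311, 287 and 279 CPM (FGF18). The 3 WT vehicle libraries lay close together above all the rest, WT FGF18 overlapped FGFR3/4KO vehicle at the edge, and the FGFR3/4KO groups overlapped each other. Tsr1 was inhibited in WT RCS, at -0.61 (SE 0.13, edgeR FDR = 0.001), and in FGFR3/4KO RCS the value was 0.13 (SE 0.14, edgeR FDR = 0.87), with a 95% interval of -0.15 to 0.41. Its interaction, 0.74 (SE 0.19, edgeR FDR = 0.01), passed, also in each of the 12 fits that left out a library.

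The other 7 factors of the group belong to the processome that folds and cuts the precursor of the small subunit RNA. Bms1, its GTPase, was at 201, 237 and 271 CPM (vehicle) against 196, 203 and 131 CPM (FGF18) in WT RCS. Its levels in FGFR3/4KO RCS came to 170.1, 181 and 160.0 CPM (vehicle) and 144, 148 and 163 CPM (FGF18). The WT groups overlapped, since WT FGF18 replicates 1 and 2 lay near WT vehicle replicate 1, while replicate 3 was far lower. Neither Bms1, at -0.42 (SE 0.16, edgeR FDR = 0.052), nor Utp20, a large scaffold protein, at -0.54 (SE 0.20, edgeR FDR = 0.051), passed in WT RCS. Both were called lower in the 3 alternatives named above, Bms1 also in 4 and Utp20 in 7 of the 12 fits without 1 library. Utp14a, which activates a helicase of the processome, had a log2 fold change of -0.62 (SE 0.30, edgeR FDR = 0.14), Utp18 -0.42 (SE 0.44, edgeR FDR = 0.53) and Utp23 -0.36 (SE 0.16, edgeR FDR = 0.11). Utp3 was at -0.24 (SE 0.14, edgeR FDR = 0.23) and Nol10 at -0.14 (SE 0.24, edgeR FDR = 0.72). In FGFR3/4KO RCS the 8 genes ranged from -0.70 to 0.18, with a median of -0.09 and none passing. The summed level of the group was 1082 ± 57.2 CPM in WT vehicle, 799 ± 11.6 in WT FGF18, 899 ± 56.8 in FGFR3/4KO vehicle and 869 ± 44.0 in FGFR3/4KO FGF18 (SD, n = 3 each).

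None of the 3 large subunit assembly genes passed in WT RCS. Rrp1 had a log2 fold change of -0.66 (SE 0.31, edgeR FDR = 0.12), its paralog Rrp1b -0.44 (SE 0.19, edgeR FDR = 0.096), and Rrp15, a factor of early nucleolar precursors, -0.13 (SE 0.18, edgeR FDR = 0.66). Whether reads of Rrp1 and Rrp1b can be told apart was not tested. Their values in FGFR3/4KO RCS were -0.14, 0.20 and 0.04. Polr1d, a subunit that polymerases I and III share, was at 0.07 (SE 0.27, edgeR FDR = 0.89) in WT RCS and -0.46 (SE 0.33, edgeR FDR = 0.83) in FGFR3/4KO RCS.

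**Figure D2:**
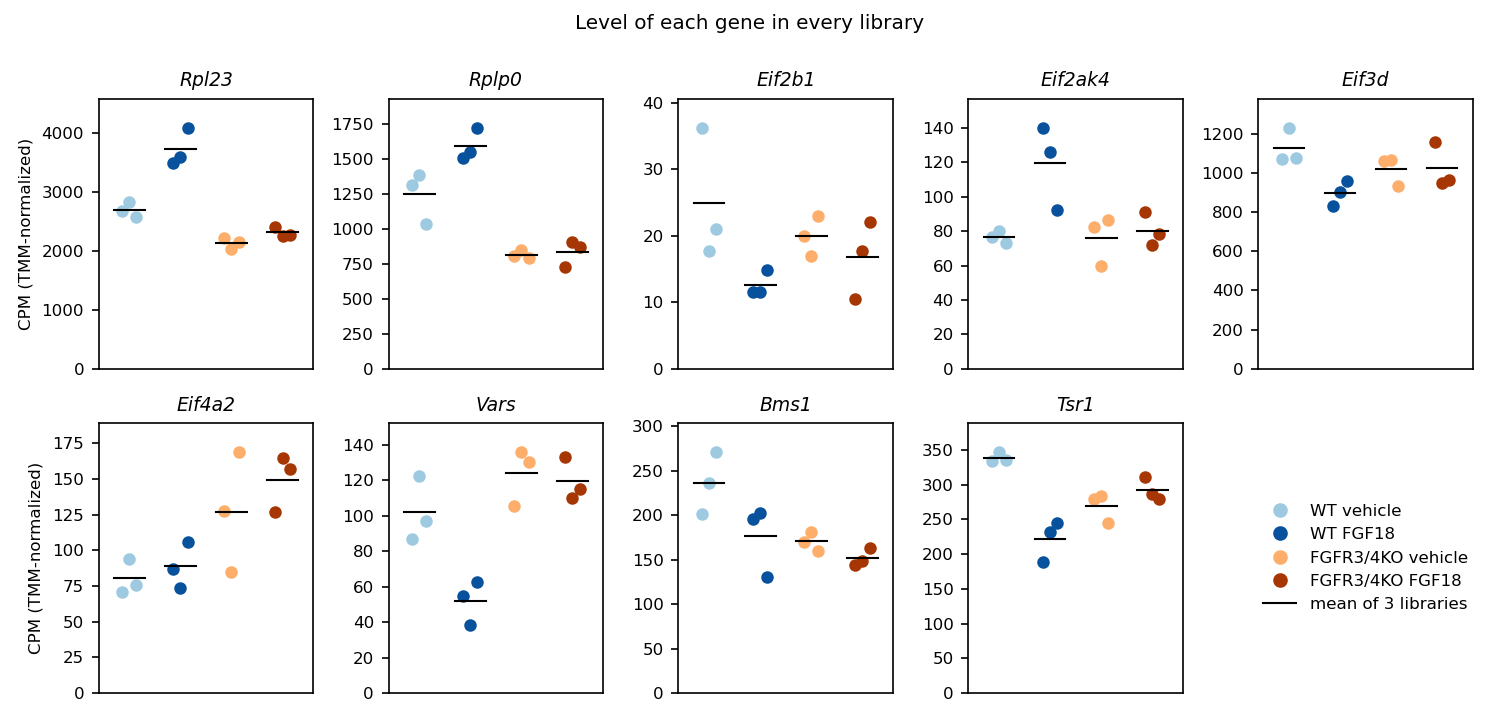
TMM-normalized CPM in each of the 12 libraries (points) and group mean (lines) for the genes named in the text that passed an edgeR FDR of 0.05 in at least 1 of the 4 comparisons, with each axis starting at 0. For Vars the 3 WT FGF18 libraries lie below all others, for Rpl23 they lie above all others, and for Rplp0 every FGFR3/4KO library lies below every WT library.

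The second comparison applied FGF18 to the clone without FGFR3 and FGFR4. None of the 33 genes passed in either direction by edgeR's quasi-likelihood test (lowest edgeR FDR = 0.79), and 0 had an unadjusted p under 0.05. Over all genes tested, 0% were higher and 0% lower, and 478 of 7378 had an unadjusted p under 0.05. The likelihood-ratio test and DESeq2 also called 0 of these genes. Log2 fold changes were spread evenly, 17 above and 16 below 0, with a median of 0.01 beside 0.01 over all genes, and ranged from -0.70 for Utp18 to 0.74 for Eif2d, the tested genes with the fewest reads.

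The interaction tests whether the FGF18 effect differed between the genotypes, as the FGFR3/4KO effect minus the WT effect. It passed for 2 of 33 genes, Vars and Tsr1, both positive, and for 0 negative ones, where 5.91% of all genes tested were positive and 4.96% negative at the same threshold in edgeR, and 6 of the 33, beside 1698 of 7378 over all genes tested, had an unadjusted p under 0.05. These counts are near the background. DESeq2 and the likelihood-ratio test gave 2 positive and 0 negative as well. Over all genes, DESeq2 gave 338 positive and 248 negative of 14530, and the likelihood-ratio test 493 and 461 of 7378. The median log2 interaction was 0.19, with 25 of 33 above 0, beside a median of -0.01 over all genes tested, and the median of the 33 was 0.20 to 0.30 in fits without 1 library. The lowest values belonged to Eif2ak4, at -0.64, and Polr1d, at -0.53. For the other 6 genes called in WT RCS the difference between the genotypes did not pass.

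The last comparison set FGFR3/4KO against WT RCS with vehicle, and it shares the WT vehicle libraries with the first, so the comparisons are not independent and were not set against each other. Of the 33 genes, 4 were lower in FGFR3/4KO RCS, among them Rplp0, Rpl23 and Bms1, and 1 was higher, Eif4a2, where 6.07% of all genes tested were lower and 8% higher (edgeR's quasi-likelihood test, FDR under 0.05). The median was -0.19, beside -0.01 over all genes tested, with 23 of 33 below 0. The call with the smallest p was that of Rplp0, with a log2 fold change of -0.61 (SE 0.13, edgeR FDR = 0.0015), and it was kept in all 12 fits that left out a library. Rpl23 was at -0.33 (SE 0.11, edgeR FDR = 0.043) and Bms1 at -0.49 (SE 0.17, edgeR FDR = 0.048).

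Eif4a2 was at 71.0, 93.8 and 76.0 CPM in WT vehicle and 127, 85.0 and 169 CPM in FGFR3/4KO vehicle. With FGF18 it was at 86.9, 73.7 and 106 CPM in WT RCS and 127, 165 and 157 CPM in FGFR3/4KO RCS. The vehicle groups overlapped, because FGFR3/4KO vehicle replicate 2, with 30 reads, lay among the WT libraries, and the FGF18 groups did not. The log2 fold change of Eif4a2 was 0.73 (SE 0.21, edgeR FDR = 0.017).

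Leaving out single libraries ended most of these calls. Rpl23 was kept only without WT FGF18 replicate 1, WT FGF18 replicate 3 or FGFR3/4KO FGF18 replicate 1, and in the other 9 fits it missed the threshold (log2 fold change from -0.36 to -0.30, edgeR FDR from 0.052 to 0.15). Bms1 was kept without WT vehicle replicate 1, WT FGF18 replicate 1, WT FGF18 replicate 2, WT FGF18 replicate 3 or FGFR3/4KO FGF18 replicate 1 and missed it in the other 7 (log2 fold change from -0.53 to -0.37, edgeR FDR from 0.054 to 0.23). Eif4a2 missed it without WT vehicle replicate 1, WT vehicle replicate 3 or FGFR3/4KO vehicle replicate 3 (log2 fold change from 0.45 to 0.68, edgeR FDR from 0.076 to 0.24). The 34 genes took 0.923% ± 0.0355 of the reads on genes in WT vehicle, 0.917% ± 0.027 in WT FGF18, 0.727% ± 0.0098 in FGFR3/4KO vehicle and 0.735% ± 0.00981 in FGFR3/4KO FGF18 (SD, n = 3 each), and the summed level of Rplp0 and Rpl23 was 3936 ± 305, 5308 ± 438, 2948 ± 65.0 and 3143 ± 10.4 CPM in the same order.

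Further genes of the same pathways, listed by function, were read in the same fit. These lists were chosen with earlier results of these data known, and their counts were not tested against the shares of all genes. Of 29 other ribosome assembly genes tested, 10 were lower and 0 higher in WT RCS, with a median log2 fold change of -0.42, where 12.8% of all genes tested were lower and 12.9% higher. A positive interaction passed in 3 of the 29, against 5.91% of all genes tested. The 3 with the smallest p for FGF18 in WT RCS were Pa2g4, a growth-regulated protein that binds the large subunit, at -0.97 (SE 0.13, edgeR FDR = 1.8e-06), Lyar, a nucleolar protein, at -0.98 (SE 0.17, edgeR FDR = 5.6e-05), and the RNA helicase Ddx52, at -0.85 (SE 0.23, edgeR FDR = 0.0069). Of 16 other tRNA genes, 3 (18.8%) were lower, near the share of all genes, and 0 higher (median -0.14): Eprs, the glutamyl-prolyl-tRNA ligase, at -0.85 (SE 0.12, edgeR FDR = 8.5e-06), Tsen15, a subunit of the tRNA splicing endonuclease, at -0.44 (SE 0.14, edgeR FDR = 0.018), and Thg1l, which adds a base to histidine tRNA, at -0.60 (SE 0.22, edgeR FDR = 0.04). Eprs was at 782 ± 55.5 CPM in WT vehicle and 433 ± 61.9 CPM in WT FGF18 (SD, n = 3 each), and its interaction was 0.78 (SE 0.17, edgeR FDR = 0.003).

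Against 12.8% of all genes tested that were lower in WT RCS, 2 further lists held no larger share. In 15 genes of mitochondrial translation, 1 (6.67%) was lower, Mrps18b of the mitochondrial small subunit, at -0.67 (SE 0.19, edgeR FDR = 0.01), and 0 higher (median -0.10). In 17 other genes of cytoplasmic translation, 2 (11.8%) were lower, Abcf1, an ATPase that binds ribosomes, at -0.48 (SE 0.12, edgeR FDR = 0.0042), and Serbp1, an mRNA-binding protein found on ribosomes, at -0.39 (SE 0.11, edgeR FDR = 0.012), and 0 higher (median 0.01). None of 5 partners of polymerases I and III passed. Among them Znrd1, a polymerase I subunit, was at -0.41 (SE 0.34, edgeR FDR = 0.42) and Myc, a transcription factor of ribosome production, at -0.34 (SE 0.45, edgeR FDR = 0.63). In FGFR3/4KO RCS no gene of these lists passed, and the medians were -0.06 for ribosome assembly, 0.08 for tRNA, 0.06 for mitochondrial and -0.01 for cytoplasmic translation, and -0.11 for the polymerase partners.

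**Figure D3:**
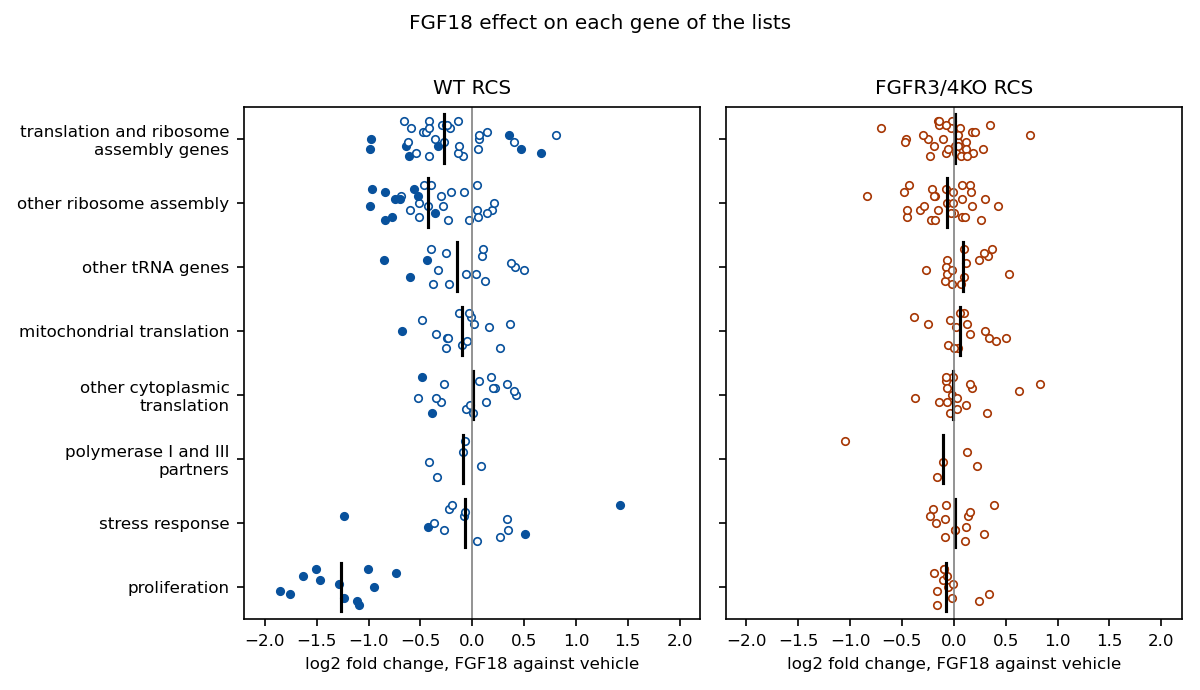
Log2 fold change (FGF18 against vehicle) of each tested gene of the translation and ribosome assembly genes and of 7 further lists, in WT RCS (left) and FGFR3/4KO RCS (right), with filled points for an edgeR FDR under 0.05 and black bars at each list's median. In WT RCS the medians of the first list and of the other ribosome assembly genes are -0.27 and -0.42, and in FGFR3/4KO RCS 0.01 and -0.06.

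Promoter windows of RefSeq (build GRCr8, 250 bases before to 50 bases after the start) were found for 30 of the 34 genes, with Vars and Wars listed there as Vars1 and Wars1. That of Utp23 was not used here. The windows were searched on both strands for CACGTG (the E-box read by Myc and by TFEB and its relatives), CCGGAAG (ETS factors), GCGCATGC (NRF1), TGATGCAA (the element read by ATF4) and TGACGTCA (the cyclic AMP response element), none of which contains another. CACGTG was in 8 of the 30 windows, those of Vars, Tsr1, Eif3b, Eif4h, Rrp1, Rrp15, Utp18 and Utp20, against 6.42% of all 33469 windows and 11.9% of those matched to a tested gene with a symbol (1122 of 1418). CCGGAAG was in 15, those of Tsr1, Bms1, Nol10, Utp3, Utp18, Rrp15, Eif1ax, Eif2b1, Eif2b2, Eif2d, Eif2ak1, Eif3d, Farsa, Wars and Iars2, against 8.75% and 21.7%. GCGCATGC was in 3, those of Eif4h, Utp20 and Vars2, against 2.47% and 8.29%. TGATGCAA and TGACGTCA were in 0 of the 30, against 0.795% and 1.83% of all windows and 0.0891% and 4.19% of those of tested genes. A match describes the letters of the window and shows no binding.

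The windows of the 2 genes whose interaction passed and of the 2 ribosomal protein genes are printed below, 5′ to 3′, with CACGTG and CCGGAAG in capitals. The Vars window lies at chr20:3824902-3825201, minus strand, and its CACGTG begins 39 bases before the start. The Tsr1 window lies at chr10:60258540-60258839, plus strand, where CCGGAAG begins 3 bases before the start and CACGTG at base 21 after it. The windows of Rpl23 (chr10:83272135-83272434, minus strand) and Rplp0 (chr12:46718341-46718640, minus strand) hold none of the 5 motifs.
Vars: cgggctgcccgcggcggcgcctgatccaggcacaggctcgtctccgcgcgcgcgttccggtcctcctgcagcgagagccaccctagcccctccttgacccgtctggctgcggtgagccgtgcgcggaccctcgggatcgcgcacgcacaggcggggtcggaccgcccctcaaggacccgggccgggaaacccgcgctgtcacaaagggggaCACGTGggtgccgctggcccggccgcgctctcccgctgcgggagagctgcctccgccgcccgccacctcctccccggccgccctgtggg
Tsr1: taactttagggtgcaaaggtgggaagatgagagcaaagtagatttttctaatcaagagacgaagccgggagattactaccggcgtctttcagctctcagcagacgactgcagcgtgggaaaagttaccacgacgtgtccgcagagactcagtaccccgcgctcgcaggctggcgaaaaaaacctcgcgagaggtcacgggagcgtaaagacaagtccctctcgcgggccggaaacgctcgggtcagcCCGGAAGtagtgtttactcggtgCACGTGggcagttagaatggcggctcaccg
Rpl23: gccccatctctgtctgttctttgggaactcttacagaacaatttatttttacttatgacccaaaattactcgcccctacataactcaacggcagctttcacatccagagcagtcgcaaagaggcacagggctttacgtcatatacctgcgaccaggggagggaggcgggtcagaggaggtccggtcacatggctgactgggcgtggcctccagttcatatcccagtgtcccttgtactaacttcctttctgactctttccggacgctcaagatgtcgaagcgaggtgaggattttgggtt
Rplp0: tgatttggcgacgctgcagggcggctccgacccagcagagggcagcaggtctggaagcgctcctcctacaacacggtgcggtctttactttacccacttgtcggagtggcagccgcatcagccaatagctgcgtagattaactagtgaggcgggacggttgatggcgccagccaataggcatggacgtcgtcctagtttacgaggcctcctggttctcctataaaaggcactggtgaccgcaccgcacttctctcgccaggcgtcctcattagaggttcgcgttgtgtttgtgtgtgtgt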

How the data were processed

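The counts for all 12 libraries are the raw htseq-count values per gene that the authors deposited, from STAR alignments to rn6 of reads cleaned by Trim Galore (versions not given in the sources used here). The sources name Gencode v19, yet the gene identifiers are Ensembl rat ones. Uncounted reads entered neither library sizes nor tests: 71.2% to 79.8% of a library were set aside for low alignment quality and 7.44% to 9.96% for lying outside genes.

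Tests used edgeR 4.0.16 (R 4.3.3): filterByExpr with minimum count 10 and minimum total 15, TMM scaling, group means fitted to all 12 libraries, quasi-likelihood F tests, and Benjamini-Hochberg FDR over 7378 genes. SE is the absolute log2 fold change over the square root of F, and 95% intervals use the moderated t distribution. As alternatives, the likelihood-ratio test, DESeq2 1.42.0, upper-quartile scaling, no filter, a filter of 1 CPM in 3 libraries, fits of only the groups compared, a block for the replicate number, and fits without each library in turn were run. On simulated counts in which FGF18 changed 200 genes in WT RCS, the edgeR fit called 190, of which 174 were changed genes and 16 were not. The changes put in were larger than any called here among these genes, and every gene had the same spread between replicates. The recovery of smaller changes was not measured. Figures were drawn with matplotlib 3.10.9. In the 12 libraries 3 reads amount to 2.46 to 8.50 CPM, which covers counting error only, since without molecular identifiers a molecule can be read repeatedly.

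Counts and medians cover all genes of the symbol rule, 3 of which are not reported here by name. Each of the others is named, and those past the threshold in any of the 4 comparisons and the eIF2α kinases are given in every library. From each further list, up to 3 genes past the threshold with the smallest p in WT RCS are named, or 2 where none passed. The genes and lists were chosen with earlier results of these data known.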

Additional observations from a re-analysis of the deposited data

Results flagged for a closer look

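The FGF18 effect differed between WT and FGFR3/4KO RCS in 2 of the 33 tested genes, by the interaction term of edgeR's quasi-likelihood test. Both were positive, 6.06% of the 33, near the 5.91% of all genes tested. Vars had a log2 interaction of 0.93 (SE 0.27, edgeR FDR = 0.022), and its FGF18 effects were -0.98 (WT) and -0.05 (FGFR3/4KO). Tsr1 had a log2 interaction of 0.74 (SE 0.19, edgeR FDR = 0.01), with effects of -0.61 and 0.13.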

How the results depend on the processing

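In WT RCS, 5 genes were lower and 3 higher as reported. The number lower was 8 with the likelihood-ratio test, 8 with only the groups compared and 3 with the replicate block, and 3 to 8 with single libraries left out, while the number higher was 2 to 3. Over all genes, 1005 of 7378 were lower with the likelihood-ratio test and 884 of 7378 with the replicate block. The fit of only the groups compared gave 967 of 7007. With single libraries left out, 679 to 1092 of all genes were lower and 643 to 1025 higher. Vars, Tsr1 and Rpl23 passed in WT RCS in all 7 alternatives and all 12 fits with a library left out. DESeq2 did not call Eif2b1, and the replicate block called neither it, Eif3d nor Rplp0 (edgeR FDR = 0.057, 0.07 and 0.053). Rplp0 was also lost with no filter, with at least 1 CPM in 3 libraries and with only the groups compared, and Eif3d with no filter. Gained were Bms1 and Utp20 (likelihood-ratio test, no filter, at least 1 CPM in 3 libraries), Utp20 and Eif1ax (only the groups compared) and Eif2ak3 (likelihood-ratio test, only the groups compared). Of these genes, 0 passed in FGFR3/4KO RCS in any alternative. Over all genes there, 3 were lower with the likelihood-ratio test, 9 higher and 11 lower with no filter, 1 lower with at least 1 CPM in 3 libraries, 2 lower with only the groups compared, and 0 to 1 lower and 0 higher with libraries left out. The interaction of Vars and Tsr1 passed in all 6 alternatives that allow it. With libraries left out, 1 to 3 were positive and 0 to 1 negative, and over all genes 304 to 513 and 256 to 367. Between genotypes with vehicle, 4 were lower as reported, 2 with DESeq2 and 2 with the replicate block, and 7 with only the groups compared. DESeq2 lost Bms1, the replicate block Rpl23 and Bms1, and no filter Rpl23, while only the groups compared gained Eif2b4, Tsr1 and Utp3. Over all genes, 289 of 14530 were lower with DESeq2 and 375 of 7378 with the replicate block, against 448 of 7378 as reported. The fit of only the groups compared gave 685 of 6250. With libraries left out 1 to 4 of these genes were lower and 0 to 1 higher, and over all genes 258 to 530 and 421 to 681. Medians with libraries left out were -0.34 to -0.24 in WT RCS, -0.04 to 0.04 in FGFR3/4KO RCS and -0.20 to -0.14 between genotypes. The cause of these changes was not tested. No fold change that passed reversed its sign in any alternative. The replicate numbers are shared by the groups. Deviations from group means correlated at a mean r of -0.03 across genes for the same number (18 pairs). For different numbers (36 pairs) the mean r was 0.01, and 0 of 12 libraries correlated best with their own number. Deviations cancel within each group, so these means are tied to each other. They show no likeness by replicate number. A batch that does not follow the numbers would not show in them and was not tested. Depth limits Vars2, Eif2d, Utp18 and Eif2b1 most, with 75, 125, 131 and 189 reads in all libraries together.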

Other observations

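Of 14 tested genes of the stress response that the eIF2α kinases and the endoplasmic reticulum set off, 2 (14.3%) were higher and 2 (14.3%) lower in WT RCS by edgeR's quasi-likelihood test, near the 12.9% and 12.8% of all genes tested, with a median log2 fold change of -0.07 beside 0.02 over all genes tested. The 3 with the smallest p were Slc7a1, an importer of cationic amino acids, at -1.24 (SE 0.19, edgeR FDR = 1.8e-05), the transcription factor Atf3, at 1.43 (SE 0.33, edgeR FDR = 0.0017), and Sdf2l1, a chaperone partner of the endoplasmic reticulum, at 0.51 (SE 0.15, edgeR FDR = 0.01). Atf3 was at 15.3 ± 8.26 CPM in WT vehicle, 38.9 ± 10.8 in WT FGF18, 26.8 ± 4.61 in FGFR3/4KO vehicle and 37.0 ± 8.16 in FGFR3/4KO FGF18 (SD, n = 3 each). The interaction passed for Slc7a1, at 1.004 (SE 0.29, edgeR FDR = 0.025), and not for Atf3, at -1.04 (SE 0.46, edgeR FDR = 0.16), or Sdf2l1, at -0.22 (SE 0.20, edgeR FDR = 0.56).

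All 12 tested genes of a proliferation list were lower with FGF18 in WT RCS, with a median log2 fold change of -1.26, where 12.8% of all genes tested were lower, and 10 of them had a positive interaction that passed, against 5.91% of all genes tested (edgeR's quasi-likelihood test). The smallest p-values belonged to Foxm1, a transcription factor of the cell cycle, at -1.86 (SE 0.19, edgeR FDR = 2.2e-08), Spc25 of the kinetochore, at -1.51 (SE 0.15, edgeR FDR = 3.1e-08), and Nusap1 of the spindle, at -1.29 (SE 0.17, edgeR FDR = 1.7e-06). In FGFR3/4KO RCS the median of the list was -0.08 and none passed. The summed level of the list was 1785 ± 32.8 CPM in WT vehicle and 767 ± 53.1 in WT FGF18, and 1948 ± 14.1 and 1854 ± 54.6 CPM in the FGFR3/4KO groups (SD, n = 3 each).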
